A study of Mus musculus with 8 samples.

Results

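Rsad2 and Cmpk2 are a pair of neighbouring antiviral genes on mouse chromosome 12, and their levels were followed through 8 RNA-seq libraries of primary islets, the small endocrine organs of the pancreas that release insulin and glucagon. The 2 genes were found among the 54532 Ensembl identifiers of the deposited counts by their symbols, and both were among the 17055 genes with enough counts to test. They were selected on their measured CPM levels, with the rise in wild-type islets under DMXAA known. Every contrast that uses the wild-type DMXAA libraries is therefore a description of the pair, given without a p-value. The other contrasts are given with p-values, but they are not fully independent of the selection. The levels in all groups were known, and the wild-type DMSO libraries are the baseline of the rise.

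The islets came from wild-type and Sting-/- mice aged 25 to 30 weeks and were kept in culture overnight. They were then held for 3 h with DMSO, the solvent, or with DMXAA at 50 µg/mL, a synthetic agonist of the mouse form of STING, which is the adaptor that links cytosolic DNA to interferon genes. Crossing genotype with treatment gave 4 groups of 2 libraries each. Whether the libraries of a group derive from different mice or a common pool is not stated in the labels. The p-values therefore reflect the spread between libraries only, and this spread may be technical. The Sting-/- allele is not described further, and every cell of the islet preparation contributed RNA, including resident immune and vascular cells.

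Total counts ran from 15624020 to 19601850 per library. The targeted gene, listed under its older symbol Tmem173, had between 23 and 41 counts in the 4 wild-type libraries and between 19 and 48 counts in the 4 libraries labelled knockout. The count of the gene was thus not lower in the latter, which are called knockout-labelled here, and gene-level counts cannot tell which exons were read. Islet hormone markers were abundant in all 8 libraries, with beta cell markers summing to between 159576 and 319608 CPM (counts relative to the TMM-scaled size of the library). Ranges of summed markers of other cell types stand below beside the results they touch.

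Rsad2 encodes viperin, an enzyme of the radical SAM family. It uses an iron-sulfur cluster to turn CTP into a modified nucleotide, ddhCTP, which ends RNA chains when some viral polymerases take it up. Cmpk2 encodes a mitochondrial kinase of UMP and CMP and their deoxy forms, which feeds nucleotides to mitochondrial DNA synthesis and, in macrophages, has been tied to activation of the NLRP3 inflammasome. Both genes are classic targets of type I interferon, and interferon-stimulated genes are known to rise in islets that meet interferon or enteroviruses.

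In the annotation the genes stood head to head. Rsad2 (ENSMUSG00000020641) lay on the minus strand of mm10 chr12:26442746-26456452, and Cmpk2 (ENSMUSG00000020638) on the plus strand of chr12:26469204-26479837. Their start sites were 12752 bases apart with no other annotated gene between them, and no annotated gene overlapped either. The union of exons was 4335 bases long for Rsad2 and 4163 bases for Cmpk2, so counts of the genes can be set side by side with little correction for length.

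The stretches below show the part of each coding sequence that marks its enzyme class, read from the annotated transcripts. In Rsad2 it spans codons 84 to 91 of 362, with the codons of the cluster-binding cysteines in capitals. In Cmpk2 it spans codons 259 to 266 of 447, with the invariant codons of the phosphate-binding loop in capitals.
Rsad2 radical SAM stretch: TGCaactacaaaTGTggcttcTGC
Cmpk2 phosphate-binding loop: GGActggatgccactGGTAAGACC

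The 250 bases upstream of each start are shown because both genes were higher with DMXAA and have start sites that face away from each other. They come from RefSeq on GRCm38.p6, on the strand of the gene, and capitals mark a match to the core of the interferon-stimulated response element (ISRE). The starts are those of RefSeq, so the Cmpk2 window ends at 26469214, past the gene start of 26469204 given above.
Rsad2 upstream, chr12:26456453-26456702, minus strand: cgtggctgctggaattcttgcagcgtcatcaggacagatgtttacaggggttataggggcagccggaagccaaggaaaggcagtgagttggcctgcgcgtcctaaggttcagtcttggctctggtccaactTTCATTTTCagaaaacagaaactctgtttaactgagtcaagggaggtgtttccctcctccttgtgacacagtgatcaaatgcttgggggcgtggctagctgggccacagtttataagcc
Cmpk2 upstream, chr12:26468965-26469214, plus strand: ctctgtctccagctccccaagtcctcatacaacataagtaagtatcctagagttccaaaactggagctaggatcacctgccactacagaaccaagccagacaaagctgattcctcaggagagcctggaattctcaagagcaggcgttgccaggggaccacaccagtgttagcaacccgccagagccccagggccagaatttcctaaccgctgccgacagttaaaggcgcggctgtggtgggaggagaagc

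These windows were searched on both strands for 4 motifs: the ISRE core (GAAANNGAA), the GAS element (TTCNNNGAA), the AP-1 element (TGANTCA) and the NF-kB site. The Rsad2 window held an ISRE core, read as TTCATTTTC on the gene's strand from 119 to 111 bases before the start. It also held an AP-1 element from 87 to 81 bases before the start. None of the 4 motifs matched in the Cmpk2 window, which says only that these letters are not in those 250 bases. Over all 32851 windows of this length, 7.13% held the ISRE core, 7.02% the GAS element, 6.75% the AP-1 element and 3.90% the NF-kB site. Of 32 other interferon-stimulated genes used for comparison, 22 had a window and 12 of these held the ISRE core. The GAS element was found for 5 of the 22, the AP-1 element for 8 and the NF-kB site for 3. A gene was counted if any of its windows matched, whereas the shares over all windows are per window. The windows did not stand apart in base composition, with 51.6% G and C for Rsad2 and 54.8% for Cmpk2 against a median of 52.4% over all windows.

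Both genes were present in resting wild-type islets at nearly the same level, and both were far higher after 3 h of DMXAA. In wild-type islets Rsad2 was at 28.4 and 31.0 CPM with the solvent and at 1446 and 1497 CPM with the agonist. Cmpk2 was at 26.2 and 29.7 CPM with DMSO and at 350.5 and 350.2 CPM with DMXAA. The libraries within each group lay close together. The ratio of group means was 49.6 for Rsad2, between 46.6 and 52.7 over single pairs of libraries, and 12.5 for Cmpk2, between 11.8 and 13.4.

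On the log2 scale the fitted differences were 5.63 (SE 0.33) for Rsad2 and 3.65 (SE 0.17) for Cmpk2, ranks 11 and 45 from the largest among the 17055 genes tested. Per length of exon, Rsad2 went from 6.85 to 339 RPKM (reads scaled to exon length and library size) and Cmpk2 from 6.72 to 84.2 RPKM. By RPKM, Rsad2 ranked 5625 of 17049 genes with the solvent and 59 with the agonist in the wild type, while Cmpk2 ranked 5720 and 355. Together the genes took up 0.00553% and 0.00668% of all counts with DMSO and 0.178% and 0.195% with DMXAA in the wild type. Across all genes, 1.48% were called in this contrast (edgeR adjusted p under 0.05) and 1.11% were called higher. Since the rise is what the pair was chosen for, nothing is read from its place in that background. Between these groups the sum of endothelial markers was 690 and 852 CPM with the solvent and 502 and 528 CPM with the agonist, and that of macrophage markers 106 and 68.9 CPM and 63.6 and 60.9 CPM (7 genes each, none at 0). Both sums were thus lower where the pair was higher. The macrophage genes were not uniform: Lyz2 went from 38.2 and 12.2 CPM to 6.46 and 5.67 CPM, and C1qa from 12.4 and 17.7 CPM to 19.9 and 21.6 CPM. Sums of alpha cell markers were higher with the agonist, at 16316 and 17738 CPM against 16076 and 15269 CPM. So were those of delta and PP cell markers, at 2421 and 2353 CPM against 1718 and 2090 CPM. The part of these cells in the level of the pair was not tested.

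**Figure D1:**
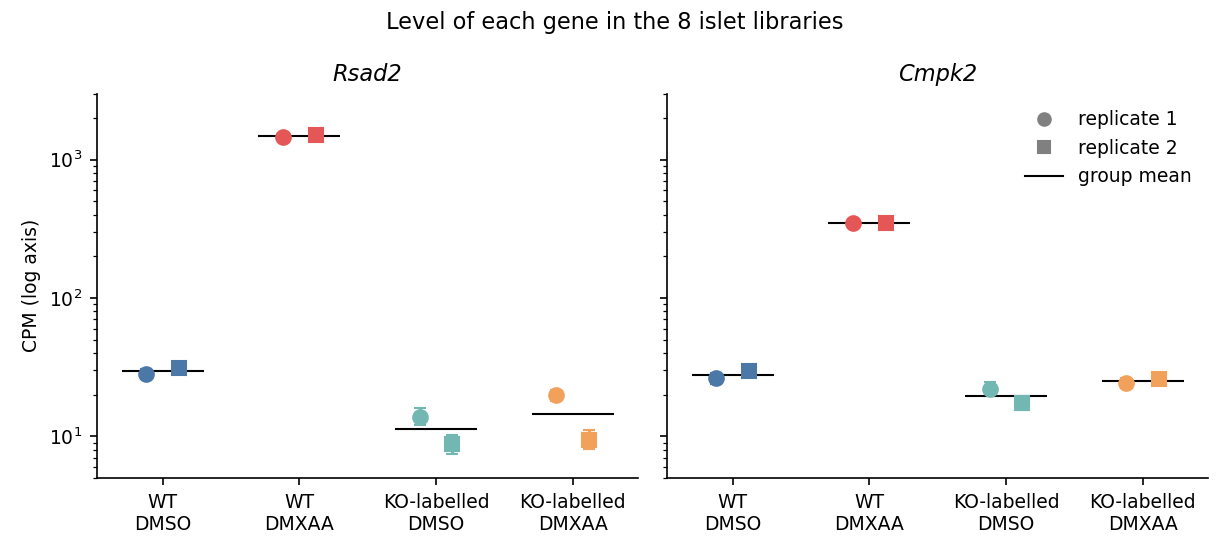
Level of Rsad2 and Cmpk2 in each library, in CPM on a log axis. Circles are replicate 1, squares replicate 2, black lines group means, and bars, often smaller than the symbol, exact 95% Poisson intervals that cover counting error only. The wild-type DMXAA libraries stand apart at 1446 and 1497 CPM for Rsad2 and about 350 CPM for Cmpk2, and the lowest symbols are the knockout-labelled libraries.

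In the knockout-labelled islets neither gene passed the test with DMXAA. Rsad2 was at 13.9 and 8.83 CPM in the DMSO libraries and at 19.8 and 9.48 CPM in the DMXAA libraries. These groups overlapped, and DMXAA replicate 1 lay above the other 3 libraries. The log2 difference was 0.38 (SE 0.31, edgeR quasi-likelihood test, adjusted p = 0.907, 95% interval -0.31 to 1.07), and it was -0.25 without knockout-labelled DMXAA replicate 1 and 0.83 without replicate 2. Cmpk2 was at 22.1 and 17.3 CPM with DMSO and at 24.3 and 25.9 CPM with DMXAA, so both DMXAA libraries were above both DMSO libraries. Its log2 difference was 0.35 (SE 0.16, unadjusted p = 0.0484, adjusted p = 0.679, edgeR, 95% interval 0.00 to 0.70), and the unadjusted p lay between 0.0254 and 0.377 over the fits that left out a library. The difference was 0.19 without knockout-labelled DMSO replicate 2 and 0.53 without replicate 1.

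Among all genes, 0.375% were called in this contrast, and 18.1% had both knockout-labelled DMXAA libraries above both DMSO libraries, as Cmpk2 did. The intervals end at a 2.10-fold rise for Rsad2 and a 1.63-fold rise for Cmpk2, so changes of the size seen in wild-type islets lay outside them. Marker sums also differed between these groups without overlap. The sum of acinar markers (7 genes, none at 0) was 1131 and 1672 CPM with the solvent and 311 and 243 CPM with the agonist, and that of endothelial markers 616 and 557 CPM and 1078 and 932 CPM. Fibroblast and stellate markers were also higher with the agonist, at 173 and 142 CPM against 80.8 and 78.9 CPM. Lymphocyte markers were lower, at 3.97 and 9.60 CPM against 27.3 and 25.9 CPM, with 3 and 2 of the 6 genes at 0 in the DMXAA libraries. Duct markers (3 genes, with Cftr at 0 in DMXAA replicate 2) were lower too, at 7.84 and 8.43 CPM against 9.14 and 9.46 CPM. Sox9 of the duct list went the other way, at 4.74 and 3.45 CPM with the agonist against 2.40 and 1.19 CPM. The part of these cell types in the values of the pair was not tested. In bulk RNA of this kind, fewer cells of a type and less RNA per cell cannot be told apart.

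Set against the wild type under DMXAA, the level in knockout-labelled islets was 100.5-fold lower for Rsad2 and 13.9-fold lower for Cmpk2 by group means. The corresponding log2 differences were -6.64 (SE 0.35) and -3.80 (SE 0.17). The difference between the DMXAA effects of the genotypes was -5.25 (SE 0.44) for Rsad2 and -3.29 (SE 0.23) for Cmpk2, where 1.2% of all genes were called. Both of these contrasts use the wild-type DMXAA libraries and are descriptions of the pair.

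Without the agonist, Rsad2 was lower in knockout-labelled than in wild-type islets in every library, but the difference missed the threshold over all genes. The wild-type DMSO libraries held 28.4 and 31.0 CPM and the knockout-labelled ones 13.9 and 8.83 CPM, a 2.62-fold lower fitted level (95% interval 1.64 to 4.19). The log2 difference was -1.39 (SE 0.31, unadjusted p = 0.00096, adjusted p = 0.141, edgeR). The adjusted p was 0.0131 without knockout-labelled DMXAA replicate 1 and 0.0133 without replicate 2, libraries outside this contrast, and 0.0538 in a fit of the 4 DMSO libraries alone. Over the other 6 fits that left out a library the log2 difference stayed negative, between -1.76 and -1.11, and the adjusted p reached 0.829.

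Cmpk2 showed a smaller difference in the same direction, with 26.2 and 29.7 CPM in wild-type DMSO and 22.1 and 17.3 CPM in knockout-labelled DMSO. The groups did not overlap, and the log2 difference was -0.51 (SE 0.16, unadjusted p = 0.00756, adjusted p = 0.252, edgeR, 95% interval -0.86 to -0.16). Across all genes 0.223% were called in this contrast, and 22.4% had both knockout-labelled libraries below both wild-type libraries, so the lack of overlap alone is common here. By size of the negative log2 difference, Rsad2 ranked 299 and Cmpk2 2009 among 17055 genes.

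The DMSO groups differed in marker sums as well. Lymphocyte markers (6 genes) summed to 4.63 and 1.97 CPM in wild-type and to 27.3 and 25.9 CPM in knockout-labelled DMSO libraries, with the killer cell gene Nkg7 at 0 in both of the latter. Endothelial markers were lower in the knockout-labelled libraries, at 616 and 557 CPM against 690 and 852 CPM, as were fibroblast and stellate markers (6 genes, none at 0), at 80.8 and 78.9 CPM against 272 and 99.0 CPM. Duct markers were lower too, and the sums of beta, alpha, and delta and PP cell markers were higher, each without overlap. Beta cell markers were at 250794 and 256736 CPM against 214613 and 159576 CPM. Alpha cell markers were at 19326 and 21278 CPM against 16076 and 15269 CPM. Single genes did not all follow the sum of their list. Slc2a2 of the beta list was at 343 and 367 CPM in knockout-labelled against 368 and 367 CPM in wild-type libraries. Egfl7 of the endothelial list overlapped, at 51.1 and 40.6 CPM against 33.5 and 50.7 CPM. Macrophage markers (7 genes, none at 0) overlapped, at 93.8 and 94.4 CPM against 106 and 68.9 CPM. The part of these cells in the lower level of Rsad2 was not tested.

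The order of the group means was the same for both genes: knockout-labelled DMSO lowest, then knockout-labelled DMXAA, then wild-type DMSO, then wild-type DMXAA. For Rsad2 the 2 lowest groups overlapped, wild-type DMSO was 2.03-fold above knockout-labelled DMXAA, and wild-type DMXAA stood well apart. For Cmpk2 no neighbouring groups overlapped, although wild-type DMSO was only 1.11-fold above knockout-labelled DMXAA. Such separation is common between groups of 2 libraries. For the lowest step, 18.1% of all genes had both knockout-labelled DMXAA libraries above both DMSO libraries. The share of all genes was not counted for the other steps of this order.

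The genes differed in range, which the ratio of their RPKM values per library shows. The ratio of Rsad2 to Cmpk2 was 1.04 and 1.0 in wild-type islets with the solvent and 3.96 and 4.11 with the agonist. In knockout-labelled islets it was 0.606 and 0.490 with the solvent and 0.782 and 0.351 with the agonist. Thus the transcripts were about equal per length in resting wild-type islets, Rsad2 was the more abundant only with DMXAA in the wild type, and Cmpk2 was the more abundant in all 4 knockout-labelled libraries. The group means were 1.02 ± 0.0254, 4.03 ± 0.102, 0.548 ± 0.0826 and 0.567 ± 0.305 (SD, n = 2), in the order given. The large spread of the last group came from Rsad2, which differed 2.09-fold between its libraries while Cmpk2 differed 1.07-fold.

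**Figure D2:**
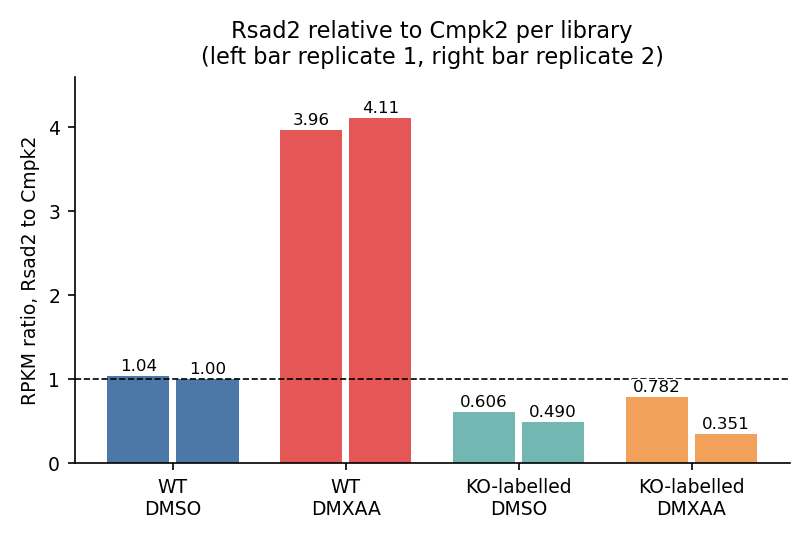
Ratio of Rsad2 to Cmpk2 in RPKM for each library, with the left bar replicate 1 and the right bar replicate 2 of each group. The dashed line marks equal levels per length of exon. Wild-type DMSO bars sit at the line, wild-type DMXAA bars at about 4, and all knockout-labelled bars below 1.

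The 32 comparison genes, textbook interferon-stimulated genes such as the Ifit, Oas and Mx families, place the pair in the wider response. In wild-type islets 25 of them rose with DMXAA (edgeR adjusted p under 0.05, none fell), beside 1.11% of all genes called higher. Their median log2 difference was 2.17, where the median of all genes was 0.00. Of the 32, Ifit2 (7.10), Cxcl10 (6.68) and Ifit3b (5.71) had larger differences than Rsad2, where reads of Ifit3b may be shared with its near-identical copy Ifit3, while 10 had larger and 22 smaller differences than Cmpk2. In the wild type their summed level was 525 and 485 CPM with the solvent and 3695 and 3972 CPM with the agonist. In knockout-labelled islets the sums were 484 and 400 CPM with the solvent and 519 and 440 CPM with the agonist.

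In the knockout-labelled islets 0 of the 32 were called with DMXAA by edgeR, DESeq2 or limma-voom, 2 had an unadjusted p under 0.05, and the median was 0.28 with 24 positive values. Of all genes there, 0.375% were called by edgeR, 7.30% had an unadjusted p under 0.05, and 49.9% were positive. Rsad2 at 0.38 and Cmpk2 at 0.35 lay inside the range of these genes, from -0.44 to 0.75. Between genotypes under DMSO, 0 of the 32 were called by any of these tools, 10 had an unadjusted p under 0.05, all lower in knockout-labelled islets, and the median was -0.39 with 25 negative values. Over all genes 0.223% were called by edgeR in this contrast, 12.3% had an unadjusted p under 0.05 and 50.0% had a positive value. Every one of the 32 had a log2 difference above the -1.39 of Rsad2, the nearest being the GTPase gene Iigp1 at -1.38, and Cmpk2 at -0.51 lay inside their range.

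**Figure D3:**
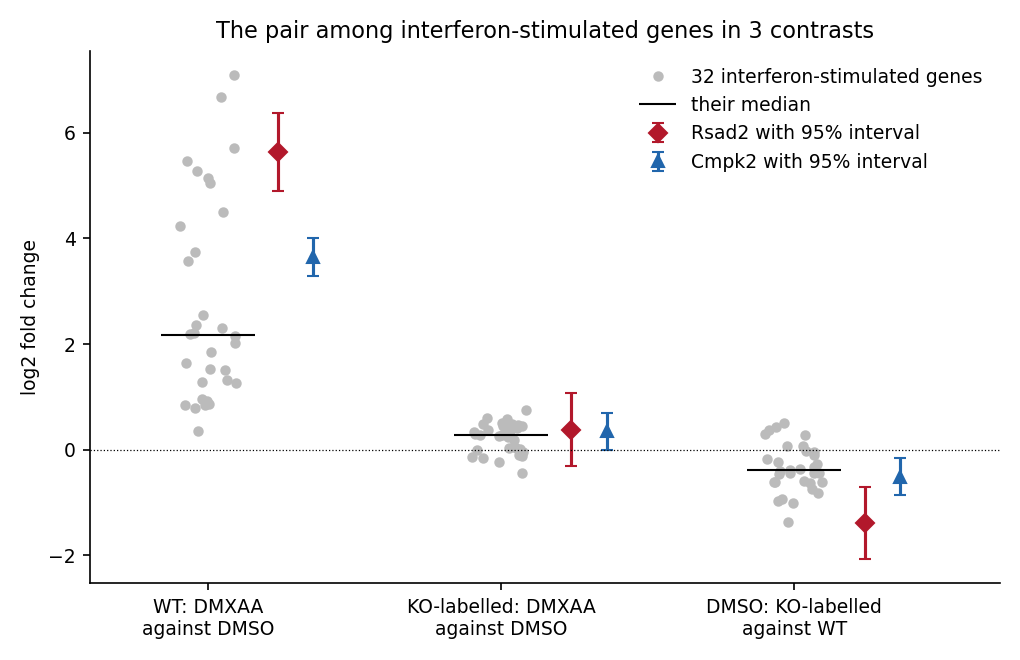
Log2 fold change of 32 interferon-stimulated genes (grey points, black line at their median) and of Rsad2 and Cmpk2 with 95% intervals, in 3 contrasts. The pair sits high in the wild-type response, at 5.63 and 3.65, close to the median of 0.28 in the knockout-labelled response, and Rsad2 sits at the lower edge between genotypes under DMSO.

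The genes whose profile over the 8 libraries was most like that of each member were other interferon-stimulated genes, and the lists for the members did not share a gene. Likeness was the root mean square difference between centred log2(CPM + 1) profiles over 14419 genes with a mean of at least 1 CPM, and it rests mostly on the wild-type DMXAA libraries. Nearest to Rsad2 were Ifit2 (0.531), Oasl1 (0.604), Ifit3 (0.677), Ifit1 (0.681) and Cxcl10 (0.777). Nearest to Cmpk2 were the antiviral GTPase gene Mx1 (0.251), the DNA sensor family gene Ifi207 (0.263), the necroptosis kinase gene Ripk3 (0.300), Rnd1 (0.342) and the GTPase gene Gbp2 (0.404). Cmpk2 itself came 16 in the order for Rsad2 and Rsad2 came 142 in the order for Cmpk2, with a difference of 1.2 between the pair.

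The likeness measure weighs size of change, not shape alone. Pearson's r between Rsad2 and Cmpk2 over the 8 libraries was 0.989, a description only, since the 2 wild-type DMXAA libraries form a separate cluster.

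Viperin uses CTP and Cmpk2 makes the precursors of CTP and dCTP, so the other genes of pyrimidine nucleotide supply were examined. Of 36 listed, 35 were tested, and 2 rose in wild-type islets with DMXAA while none fell, beside 1.11% of all genes called higher, with a median log2 difference of 0.04. Samhd1, which breaks down deoxynucleotides, was at 30.4 and 33.8 CPM with DMSO and at 52.7 and 57.7 CPM with DMXAA (log2 difference 0.78, SE 0.16, adjusted p = 0.0186, edgeR). In the knockout-labelled libraries Samhd1 was between 29.1 and 35.0 CPM. The difference between the genotypes' effects was -0.89 (adjusted p = 0.0921, edgeR), called by DESeq2 but not by limma-voom. Under DMXAA Samhd1 was lower in knockout-labelled than in wild-type islets (log2 difference -0.88, adjusted p = 0.0061, edgeR), also called by DESeq2 and limma-voom. Upp1, which splits uridine, was at 50.1 and 49.1 CPM with DMSO and at 74.5 and 87.6 CPM with DMXAA in the wild type (log2 difference 0.71, SE 0.15, adjusted p = 0.0256, edgeR).

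Neither gene held its call without wild-type DMXAA replicate 1 (adjusted p = 0.103 for Samhd1 and 0.0809 for Upp1), without replicate 2 of that group (0.248 and 0.404), or without wild-type DMSO replicate 1 (0.139 and 0.0909). Upp1 also lost it without knockout-labelled DMSO replicate 1 (0.075) or replicate 2 (0.0756). Cmpk1, the cytosolic counterpart of Cmpk2, was not called (log2 difference -0.25, adjusted p = 0.553), nor were the CTP synthase genes Ctps (0.00, adjusted p = 0.999) and Ctps2 (0.00, adjusted p = 0.995). In the knockout-labelled islets with DMXAA, and between genotypes under DMSO, 0 of the 35 were called by edgeR, DESeq2 or limma-voom. In these contrasts edgeR called 0.375% and 0.223% of all genes. An unadjusted p under 0.05 was found for 0 and 3 of the 35, against 7.30% and 12.3% of all genes.

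A further list held other radical SAM enzymes and the genes that supply viperin with its cofactors, namely the makers of S-adenosylmethionine and the machinery that builds and delivers iron-sulfur clusters. Of 23 listed, 22 were matched and tested, and 0 were called in wild-type islets with DMXAA by edgeR, DESeq2 or limma-voom, with 0 at an unadjusted p under 0.05, a median of 0.00 and a range from -0.36 to 0.23. Of all genes 1.48% were called there and 11.9% had an unadjusted p under 0.05. In knockout-labelled islets with DMXAA, Mat2a, which makes S-adenosylmethionine, had a log2 difference of -0.70 (edgeR adjusted p = 0.174) and was called lower by DESeq2. Ciao1, a targeting factor reported to hand the cluster to viperin, had a log2 difference of -0.17.

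Of 11 reported partners of viperin 1 rose in wild-type islets with DMXAA, beside 1.11% of all genes. Plin2, a coat protein of the lipid droplets on which viperin sits, was at 45.1 and 46.3 CPM in wild-type DMSO and at 75.6 and 76.0 CPM with the agonist (log2 difference 0.73, SE 0.16, adjusted p = 0.0441, edgeR). Plin2 was also higher with DMXAA in both knockout-labelled libraries, at 62.4 and 74.2 CPM against 44.0 and 33.0 CPM. There the log2 difference was 0.83 (SE 0.17), with adjusted p = 0.0572 by edgeR, and DESeq2 called it. The test of the difference between genotypes gave 0.10 (SE 0.23, adjusted p = 0.94, edgeR). In the wild type Plin2 missed the threshold when any 1 of 5 libraries was left out: wild-type DMXAA replicate 1 (adjusted p = 0.271) or 2 (0.277), wild-type DMSO replicate 1 (0.193), or knockout-labelled DMSO replicate 1 (0.052) or 2 (0.0531). The sterol enzyme gene Fdps, at -0.22, and the kinase gene Tbk1, at 0.02, were not called, and the list median was -0.16.

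A list of 10 genes held the machinery of mitochondrial DNA synthesis and transcription, where Cmpk2 acts, and the inflammasome sensor gene Nlrp3. In wild-type islets with DMXAA 0 of the 10 were called by edgeR, DESeq2 or limma-voom, against 1.48% of all genes, and 2 had an unadjusted p under 0.05, against 11.9%. The mitochondrial transcription factor gene Tfb2m was at 18.5 and 16.4 CPM with DMSO and lower in both DMXAA libraries, the lowest at 10.4 CPM (log2 difference -0.64, SE 0.19, edgeR adjusted p = 0.213). Nlrp3 was at 0.684 and 0.541 CPM with DMSO and at 3.45 and 0.833 CPM with DMXAA, so 1 library carried most of its log2 difference of 1.79 (SE 0.63, adjusted p = 0.309).

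Several genes of the signalling upstream of interferon targets also rose. Of 20 regulators of STING and interferon signalling, 8 rose in wild-type islets with DMXAA and none fell, where 1.11% of all genes were called higher, with a median log2 difference of 0.57. Ifnb1, the interferon beta gene, was at 0 counts in both wild-type libraries without the agonist, and at 536 and 261 counts with it. The knockout-labelled libraries held 1 and 0 counts without the agonist and 3 and 0 with it. Irf1 rose by 1.79 (SE 0.16, adjusted p = 2.5e-05) and Irf7, the amplifier of interferon production, by 1.53 (SE 0.21, adjusted p = 0.0013). Stat2 (1.30, adjusted p = 0.0028) and Irf9 (0.80, adjusted p = 0.031) encode transcription factors that act together at the ISRE. The feedback genes Socs1 and Usp18 rose by 2.99 (adjusted p = 0.00079) and 1.5 (adjusted p = 0.0020), all by edgeR.

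Stat2 missed the threshold without wild-type DMSO replicate 1 (adjusted p = 0.0794). Irf9 missed it without wild-type DMXAA replicate 2 (0.526), wild-type DMSO replicate 1 (0.231) or knockout-labelled DMSO replicate 1 (0.0776) or 2 (0.0792). Prdm1, a transcriptional repressor, had a log2 difference of -0.20 and the targeted gene Tmem173 of -0.31, and neither was called.

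In the knockout-labelled islets 0 of the 20 were called with DMXAA by edgeR, DESeq2 or limma-voom, where edgeR called 0.375% of all genes. An unadjusted p under 0.05 was found for 3 of the 20, against 7.30% of all genes. Between genotypes under DMSO only Irf1 of the 20 was called, beside 0.223% of all genes. It was higher in knockout-labelled islets, at 89.3 and 86.0 CPM against 38.6 and 50.9 CPM (log2 difference 0.97, SE 0.16, adjusted p = 0.0289, edgeR), where the members of the pair were lower. Irf1 missed the threshold there without wild-type DMSO replicate 1 (adjusted p = 0.114) or knockout-labelled DMSO replicate 1 (0.294) or 2 (0.290).

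Few genes around the pair on the chromosome could be measured. Of these, 1 rose with DMXAA in wild-type islets, beside 1.11% of all genes called higher, and they are too few to give a share. Between the outermost of the 3 nearest protein-coding genes on each side lay 38 annotated genes, of which 4 had enough counts to test. Rnf144a, which encodes a ubiquitin ligase, was the nearest of these, 27492 bases from the pair on the Rsad2 side and on the same strand as Rsad2. Wild-type islets held 2.16 and 2.56 CPM of it with the solvent and 7.0 and 6.14 CPM with the agonist, and its log2 difference of 1.47 passed the test (SE 0.28, adjusted p = 0.0159, edgeR). In knockout-labelled libraries it was at 2.47 and 2.04 CPM with DMSO and at 3.44 and 3.98 CPM with DMXAA (log2 difference 0.72, SE 0.32, adjusted p = 0.647), and the difference between genotypes was -0.75 (SE 0.43, adjusted p = 0.668). Rnf144a missed the threshold without wild-type DMXAA replicate 1 (adjusted p = 0.163) or 2 (0.0764), or without wild-type DMSO replicate 1 (0.145).

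The other tested neighbours did not pass: Kidins220 at 0.06, the transcription regulator gene Id2 at -0.40 and Sox11 at 0.52 on the log2 scale. The protein-coding genes Dcdc2c and Allc had 1 and 0 counts over all 8 libraries. Of the pseudogenes next to the pair, Gm47799 had 0 counts and Gm46344, on the Cmpk2 side, had 19 counts in total. Of these, 4 and 13 fell in the wild-type DMXAA libraries and 2 in knockout-labelled DMXAA replicate 1, with 0 in every DMSO library. Gm46344 had too few counts to test. The remaining untested genes had between 0 and 27 counts over all libraries.

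**Figure D4:**
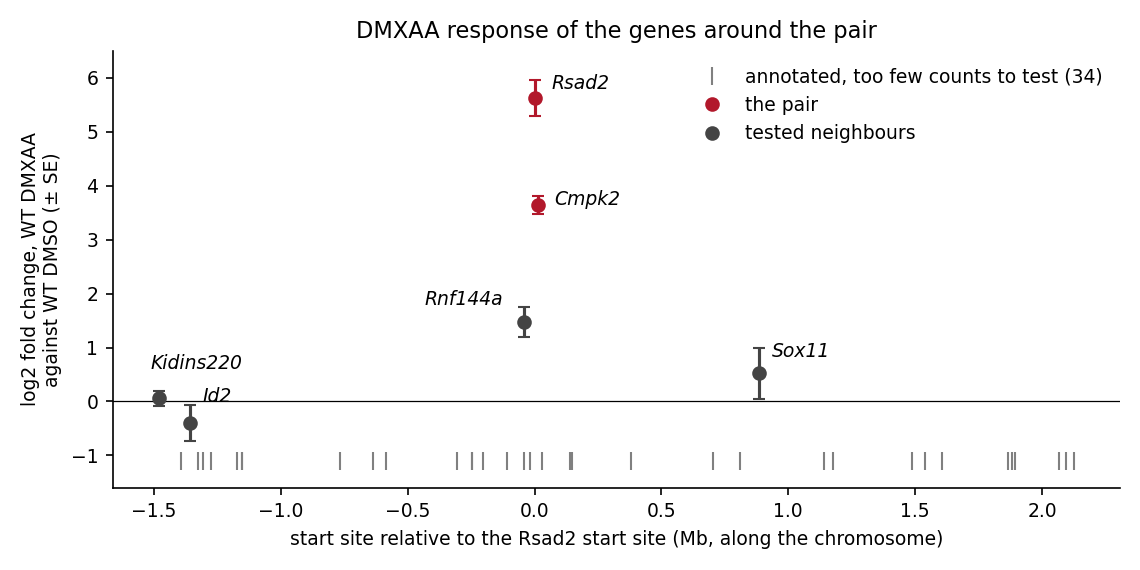
Log2 fold change with DMXAA in wild-type islets (± SE) against the distance of each gene's start from the Rsad2 start, in Mb along the chromosome. Red points are the pair, dark points the 4 tested neighbours, and grey ticks the 34 annotated genes with too few counts to test. Rnf144a, at 1.47, is the only tested neighbour that passed the test, where 1.11% of all genes were called higher.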

How the data were processed

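The authors deposited raw counts per Ensembl gene for each of 8 libraries. Per the submitters' processing notes, HISAT2 and HTSeq were used with mm10. Versions, strand setting and annotation release were not given in the sources used here. Symbols and coordinates come from GENCODE M21, which holds 54495 of the 54532 identifiers. Counts were fitted with edgeR 4.0.16 (limma 3.58.1, R 4.3.3): filterByExpr by group kept 17055 genes, libraries were scaled by TMM, and 1 quasi-likelihood model with 4 groups was fitted to all 8 libraries (4 residual degrees of freedom, biological coefficient of variation 17.1%). Benjamini-Hochberg adjustment ran over all tested genes, and an adjusted p under 0.05 was called. CPM used the scaled library sizes, and RPKM the union exon length. An SE is the absolute log2 difference over the square root of F. Replicates differed by more than sampling noise (chi-square per degree of freedom 6.83 to 53.8). DESeq2 1.42.0, limma-voom, other scalings and filters, a replicate term and leaving out libraries were alternatives. The steps were tested on simulated data.

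The members, gene lists and tests were chosen with earlier results of these data known. Named genes were the pair, the 3 nearest coding genes on each side and measured genes between, list members called in wild-type islets (at most 8 a list), 12 further genes listed by name, and the 5 nearest profiles per member. Not every gene that met this rule is reported here. Intervals from counts cover counting error only, because PCR copies of a molecule are not independent.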

Additional observations from a re-analysis of the deposited data

Results flagged for a closer look

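Among the listed genes other than the pair, the DMXAA effect differed between genotypes by the interaction test of edgeR for the regulators Irf1, Socs1 and Stat2, each with a smaller effect in knockout-labelled islets. Irf1 differed by -2.19 on the log2 scale (adjusted p = 0.00025, with 1.79 in wild-type and -0.39 in knockout-labelled islets), and Irf1 also started higher in the knockout-labelled DMSO libraries. Socs1 differed by -3.28 (adjusted p = 0.0137) and Stat2 by -1.62 (adjusted p = 0.0105). Irf1 kept its call in all 8 fits that left out a library, and the other two did not. Socs1 missed the threshold without replicate 1 of any group, with an adjusted p of 0.0609 for wild-type DMSO, 0.0573 for wild-type DMXAA, 0.188 for knockout-labelled DMSO and 0.0645 for knockout-labelled DMXAA. Stat2 missed it without wild-type DMSO replicate 1 (0.0718) or knockout-labelled DMSO replicate 1 (0.0772) or 2 (0.0849), and also with total counts in place of TMM (0.132). The interaction test also called 16 of the 32 interferon-stimulated genes used for comparison, where 1.2% of all genes were called, all with a smaller effect in knockout-labelled islets. Groups of 2 libraries are too small to screen for a library that stands apart.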

How the results depend on the processing

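Under the scaling, filter and tool alternatives, the pair kept its direction in each contrast. With total counts in place of TMM, the difference of Cmpk2 between genotypes under DMXAA was -3.89. Leaving out a library gave Rsad2 -0.25 (without knockout-labelled DMXAA replicate 1) to 0.83 for DMXAA in knockout-labelled islets, -1.76 to -1.11 between genotypes under DMSO, -7.27 to -6.22 under DMXAA and -5.88 to -4.81 for the interaction. For Cmpk2 the ranges were 3.58 to 3.74 for DMXAA in the wild type, 0.19 to 0.53 in knockout-labelled islets, -0.70 to -0.36 between genotypes under DMSO, -3.86 to -3.75 between genotypes under DMXAA and -3.47 to -3.12 for the interaction. As ratios of raw counts, Rsad2 to Cmpk2 was 1.06, 4.2, 0.571 and 0.590 in wild-type DMSO, wild-type DMXAA, knockout-labelled DMSO and knockout-labelled DMXAA.

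Counts of called genes moved more, and the cause was not tested. For DMXAA in knockout-labelled islets (64) they were 22 with total counts, 177 with no filter, 29 with the older edgeR form, 154 with DESeq2, 0 with limma-voom and 129 in a fit of the 4 libraries alone. Between genotypes under DMSO (38) they were 14, 159, 17, 155, 18 and 25 in that order, and 25 with at least 1 CPM in every library of a group. The interaction (204) gave 129 with total counts and 312 with DESeq2. Leaving out a library gave 160 to 994 in the wild type, 3 to 129 in knockout-labelled islets, 3 to 240 between genotypes and 87 to 304 for the interaction.

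The pyrimidine list had 0 calls with total counts or the 4 libraries alone (0 to 3 without a library). Viperin partners had 0 under both of these (0 to 1). Mitochondrial DNA synthesis had 0 to 1 without a library. Neighbours had 0 in the fit of 4 libraries (0 to 1).

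With total counts, Samhd1, Upp1, Plin2 and Irf9 missed the threshold in the wild type (adjusted p = 0.148, 0.110, 0.135 and 0.188), as did Irf1 between genotypes under DMSO (0.175). In fits of 4 libraries the values for these 5 were 0.0607, 0.0888, 0.0543, 0.154 and 0.0638, with 0.0612 for Rnf144a.

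Deviations of same-numbered libraries correlated by 0.0422 in the wild type, 0.0391 in knockout-labelled islets and -0.106 between genotypes under DMSO. For the remaining pairs of groups the values ran from -0.136 to 0.128. These correlations were weak, but they cannot tell whether same-numbered libraries shared mice or a pool of islets. With a replicate block the log2 difference of Rsad2 between genotypes under DMSO was -1.42 (adjusted p = 0.0545), the viperin partners had 0 calls (Plin2, adjusted p = 0.0569), and 56 genes were called in that contrast. A crossed block, chosen after seeing the data, gave 40.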
